A study of Rattus norvegicus with 12 samples.

Results

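Lung tissue of rats given silica was compared with that of rats given saline on day 28 after instillation into the trachea. The members were the arrays whose titles give 28 d, namely 3 of the model group and 3 of the control group, 6 of the 12 arrays of the series. All were male Wistar rats without a genetic modification, and each array held the RNA of the lung of 1 rat. The model group received 1 mL of silicon dioxide at 50 mg/mL, which the titles give as 50 mg/kg, and the control group 1 mL of saline. The age of the rats is not given in the sources used here. The study describes the lungs as chosen on histological changes, and the arrays measured whole tissue and not sorted cells. The remaining arrays come from 3 silica and 3 saline rats whose titles give 14 d, and they are used below as separate animals.

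Silicosis is a fibrotic lung disease caused by inhaled crystalline silica. Alveolar macrophages take up the particles through scavenger receptors, the particles damage the lysosome, and the cells release cytokines and chemokines that bring in further leukocytes. Over weeks the lesions turn into nodules of macrophages, lymphocytes, fibroblasts and collagen, at the cost of the thin alveolar walls with their capillaries.

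Each array carried 62972 spots for 51255 probes, of which between 60.5% and 61.1% were well above background in the model group and between 63.3% and 69.5% in the control group. Pairs of model arrays correlated at 0.979 to 0.988 over the probes tested, pairs of control arrays at 0.969 to 0.988, and a model with a control array at 0.917 to 0.945. The 3 model arrays and control 1 lay on one slide, and controls 2 and 3 on the other. Control 1 differed at least 2-fold from the mean of controls 2 and 3 at 4.11% of probes, whereas controls 2 and 3 differed from each other that much at 1.41%. Model 1 stood apart in size of change, being the lowest model array at 1205 of the 1521 probes called lower and the highest at 1016 of the 1599 called higher.

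A probe was called when limma gave an adjusted p of at most 0.05 and the groups differed at least 2-fold. Of 32097 probes tested, 3120 (9.72%) were called, 1599 of them upregulated (4.98%) and 1521 downregulated (4.74%). Upward changes reached further, since 393 upregulated probes changed at least 4-fold and 119 at least 8-fold, against 102 and 6 downregulated probes. The median log2 fold change was 1.53 among probes called higher and -1.29 among those called lower, beside -0.02 over all probes tested. The model arrays were spread more at the falling probes, with a median SD of 0.38 on the log2 scale against 0.17 at the rising ones, while the corresponding values in the control group were 0.20 and 0.25. Without model 1, 2495 probes were called, 1465 higher and 1030 lower.

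The arrays give probe identifiers without gene names, and names could be given to 1279 probes for 1099 genes from a table in which the study lists genes changed on these same arrays. That list is therefore not independent evidence of change or of direction. Among the 1098 named genes tested, 1093 (99.5%) were called, 571 higher (52.0%) and 522 lower (47.5%), so a share of called genes in any group of named genes says nothing. None of the 1098 had overlapping groups, so a lack of overlap in a named gene is no separate evidence either. What can be described is the direction within a group, its size, the difference from control 1, and the same genes in the separate rats of day 14. Named genes were grouped into 22 lists, with 441 distinct genes tested and 438 called. Genes on these lists that carried no name are not analysed here. A model group lung may hold fewer cells of a type or cells with less of an RNA, and in whole tissue these cannot be told apart.

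**Figure D1:**
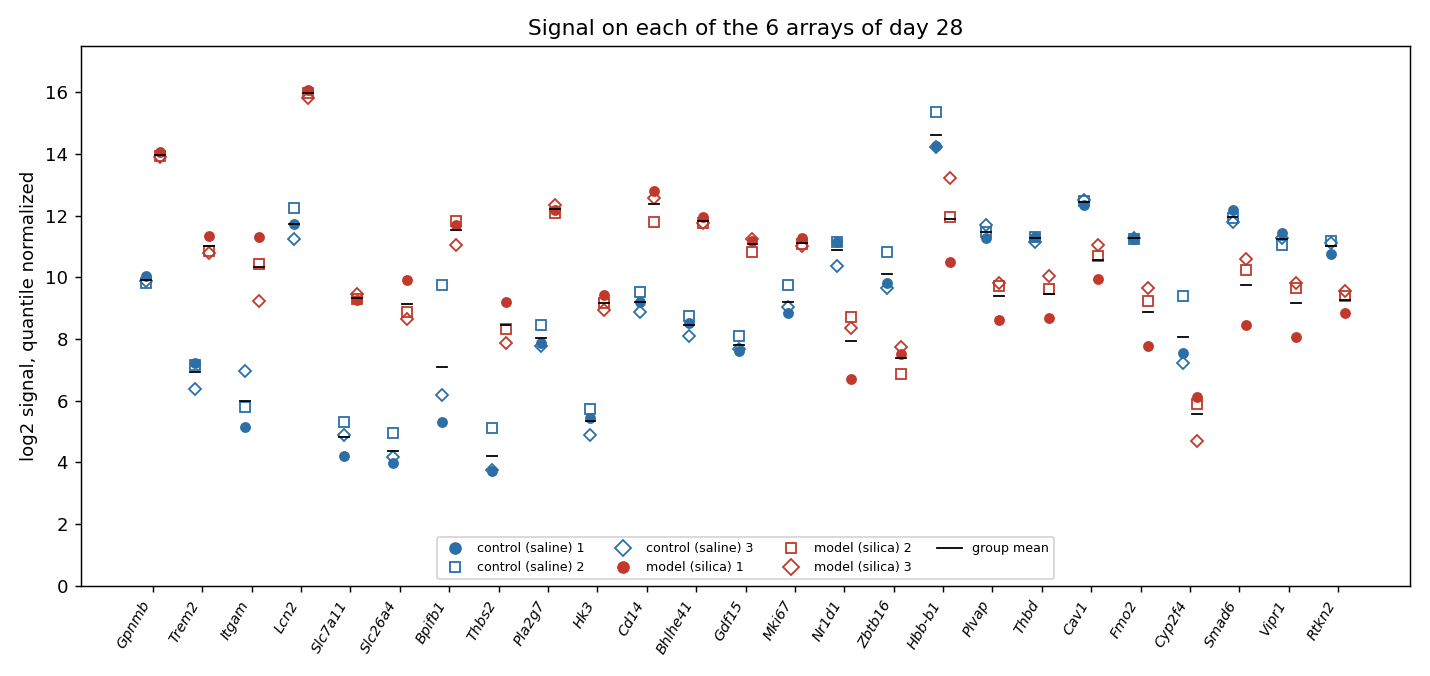
Log2 signal (vertical axis, quantile normalized) of 25 genes on each of the 6 arrays of day 28, with controls in blue, models in red, filled circles for replicate 1 and black bars for group means. No gene shown has overlapping groups, which holds for all 1098 named genes tested. Among the falling genes model 1 is the lowest of the model arrays except at Zbtb16 and Cyp2f4.

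Macrophage and monocyte genes rose in the model group. All 27 named genes of this list were called higher, with a median log2 fold change of 2.03 and a range from 1.20 to 4.35, and all 27 were at least 2-fold above control 1. Gpnmb, a membrane glycoprotein of phagocytes loaded with lysosomal material, read 14.07, 13.94 and 13.91 on the log2 scale in the model rats and 10.04, 9.83 and 9.88 in the control rats. The groups lay far apart with almost no spread inside either. The rise was 16.6-fold, with a log2 fold change of 4.06 ± 0.11 (SE) and an adjusted p of 5.5e-05. Trem2, a lipid-sensing receptor of macrophages, read 11.34, 10.85 and 10.80 against 7.22, 7.16 and 6.39, a log2 fold change of 4.07 ± 0.26 (adjusted p = 0.00035). Itgam, which encodes the alpha chain of complement receptor 3, read 11.31, 10.44 and 9.22 in the model group and 5.16, 5.80 and 6.97 in the control group. Here both groups were wide, and the lowest model rat still lay above the highest control. Its log2 fold change was 4.35 ± 0.63 (adjusted p = 0.0047), and its second named probe gave 3.61 ± 0.31.

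The scavenger receptor gene Msr1 was well above background in the model group only, at 6.96, 6.62 and 6.50, and was at least 7.82-fold higher there (adjusted p = 0.00016). Such bounds set the model mean against the lowest signal that counts as measured on the control arrays. Further rises were 3.17 for Lgals3 (galectin-3), 2.84 for Cd68 (a lysosomal membrane protein of macrophages), 1.85 for Aif1 and 1.74 for Spi1 (the transcription factor PU.1), all log2 fold changes. Vsig4, a complement receptor of resident macrophages, had a log2 fold change of 2.95, with model 1 at 8.48 and the other model rats at 6.17 and 5.70. Its call was lost on leaving out any one control rat and with slide as a block (adjusted p = 0.093).

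Genes of the lysosome, the compartment that receives ingested particles, moved in the same direction. Of 28 named genes, 27 were called higher and none lower, and all 28 were at least 2-fold above control 1. The median log2 fold change was 1.49. The gene outside the call was Psap, a saposin precursor, at 0.97, just short of the 2-fold limit. Its second named probe gave 1.35 and was called. Smpdl3a, a lysosomal phosphodiesterase, read 11.10, 10.83 and 10.64 in the model group and 8.17, 8.76 and 8.32 in the controls. Its log2 fold change was 2.44 ± 0.19 (adjusted p = 0.00065). Ctsz, a lysosomal cysteine protease, read 11.39, 11.23 and 11.27 against 8.81, 9.02 and 8.85, a change of 2.40 ± 0.11 (adjusted p = 0.00019). In both genes the spread within either group was far smaller than the gap between groups. The nuclease gene Pld3 rose by 2.28 ± 0.16 (adjusted p = 0.00041) on the same scale. Cathepsins Ctsd, Ctsb and Ctss rose by 1.90, 1.82 and 1.70. Subunits of the vacuolar proton pump, which acidifies the lysosome, were among the risers as well. Atp6v0d2, a subunit known from osteoclasts and macrophages, was below background in all control rats and at least 17.4-fold higher in the model group (adjusted p = 0.00059), while Atp6v0c, Atp6v1a and Atp6v1c1 had log2 fold changes of 1.42, 1.39 and 1.11. The Atp6v1c1 call held in 1 of the 6 fits that leave out an array.

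The letters CACGTG lie at the core of the element bound by the lysosomal regulator TFEB and its relatives, and the promoter of Smpdl3a is shown because it is the leading lysosomal gene that holds them. RefSeq promoters from assembly GRCr8, running from 250 bases before the start to 50 after it, were found for 23 of the 28 lysosomal genes, and 5 of these (21.7%) held CACGTG, against 6.65% of all 27457 promoters. The motif reads the same on both strands. The 250 bases before the start of Smpdl3a at chr20:37678754-37679003 on the plus strand are given 5′ to 3′ with the motif in capitals, beginning 104 bases before the start.
Smpdl3a: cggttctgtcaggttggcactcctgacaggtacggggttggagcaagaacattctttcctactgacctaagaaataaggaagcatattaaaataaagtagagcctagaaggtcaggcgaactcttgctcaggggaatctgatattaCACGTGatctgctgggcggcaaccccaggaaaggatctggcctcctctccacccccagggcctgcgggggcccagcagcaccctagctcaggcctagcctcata

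**Figure D2:**
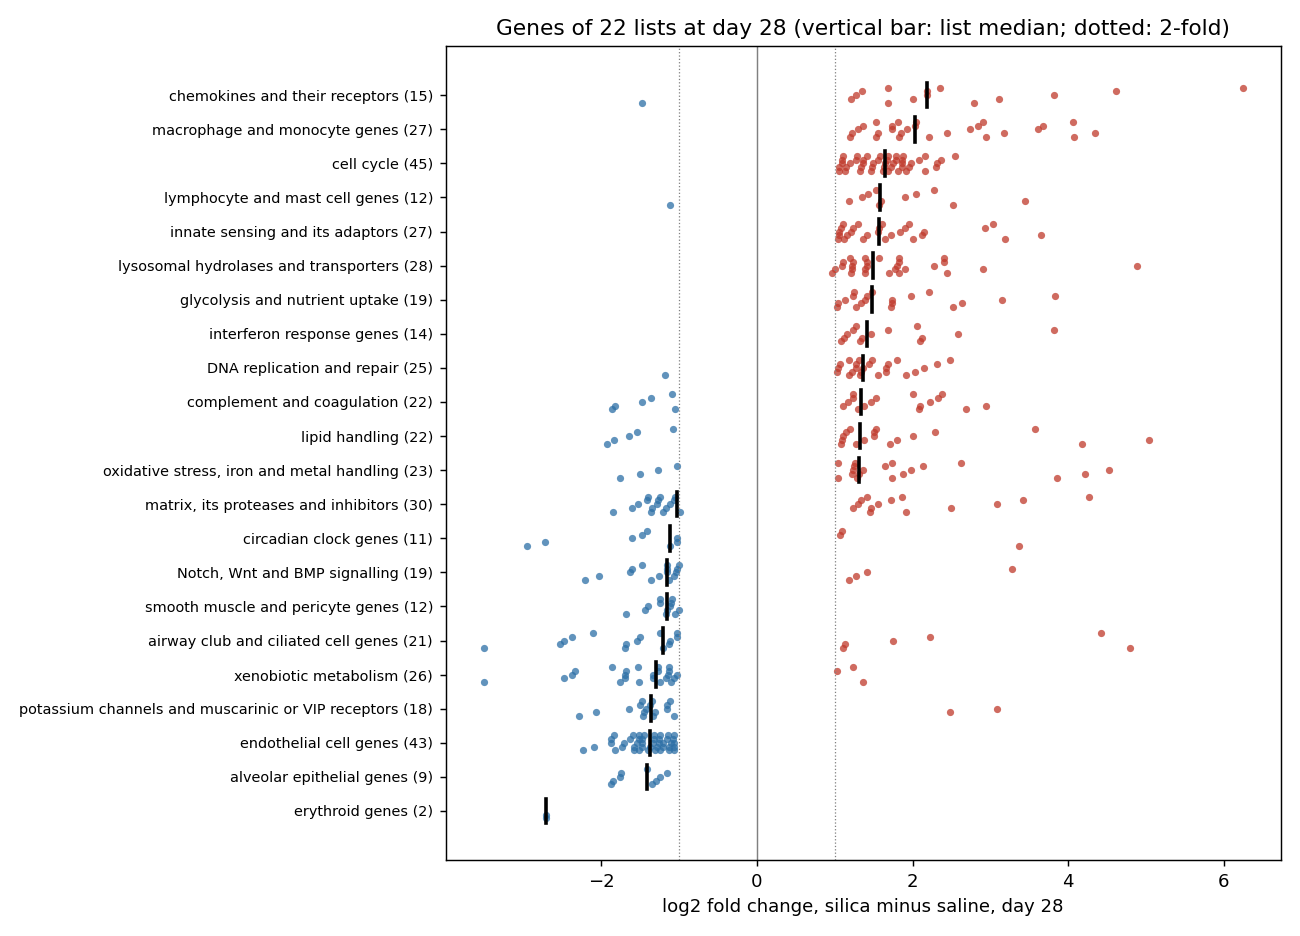
Log2 fold change between model and control group (horizontal axis) of each tested gene of 22 lists, with the number of genes in brackets, red for higher, blue for lower and a black bar at the list median. Genes below background in one group are drawn at their fitted change, and all genes of the cell cycle, innate sensing, macrophage, lysosomal, glycolysis and interferon lists lie right of 0, all of the endothelial, alveolar, smooth muscle and erythroid lists left of it.

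Genes of innate sensing rose together with those of chemokines and of the interferon response. All 27 named genes of innate sensing were called higher (median log2 fold change 1.57). Cd14, the co-receptor for bacterial lipopolysaccharide, read 12.79, 11.80 and 12.58 in the model group and 9.21, 9.52 and 8.86 in the control group. Each model rat lay more than 2 log2 units above each control. The change was 3.19 ± 0.29 on the log2 scale (adjusted p = 0.00099). Irf5, a transcription factor downstream of Toll-like receptors, rose by 2.15 ± 0.12 (adjusted p = 0.00025) and Cd180, a B-cell and macrophage relative of the Toll-like receptors, by 2.01 ± 0.13 (adjusted p = 0.00035). The cytokine gene Tnf had a log2 fold change of 1.90. The inflammasome sensor Nlrp3 and its adaptor Pycard had smaller changes of 1.21 and 1.06. With the background fitted by normexp, 9 of the 27 genes were still called. That fit adds an offset of 50 to each signal, which shrinks the fold changes of dim probes.

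Of 15 named chemokine and chemokine receptor genes, 14 were called higher and 1 lower, and the median log2 fold change was 2.18, or 2 with the genes below background set to their bounds. Ccl2, the main attractant of monocytes, read 8.47, 8.12 and 7.91 in the model rats and was not well above background in any control rat, which makes it at least 21.7-fold higher (adjusted p = 5.5e-05). The neutrophil attractant Cxcl6 was at least 6.39-fold higher and Cxcl10, an attractant of activated T cells, at least 4.65-fold higher by the same bound. Cxcl3, another attractant of neutrophils, read 9.05, 9.39 and 8.94 against 6.76, 6.64 and 6.93. Its groups lay well apart, and it rose by 2.35 ± 0.15 (adjusted p = 0.00036) and Ccl12 by 2.19 ± 0.23 (adjusted p = 0.0017). Ppbp, a chemokine stored in platelets, went the other way with a log2 fold change of -1.47 ± 0.25 (adjusted p = 0.008), and its adjusted p was 0.065 with slide as a block.

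All 14 named interferon response genes were called higher, with a median of 1.41. Usp18, which removes the ubiquitin-like protein ISG15 and dampens interferon signalling, read 10.43, 10.72 and 10.30 in the model group and 8.68, 7.93 and 8.54 in the control group. The log2 fold changes of Usp18, Slfn13 and Epsti1 were 2.10 ± 0.22, 2.12 ± 0.20 and 2.06 ± 0.13, with adjusted p-values of 0.0017, 0.001 and 0.00035. In each of these genes control 2 was the lowest array and the groups did not overlap, a state shared by 47.8% of all probes tested.

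Of 12 named lymphocyte and mast cell genes, 11 were called higher and 1 lower. Icos, a co-stimulatory receptor of activated T cells, read 8.39, 8.41 and 8.32 against 5.89, 6.43 and 5.94, a log2 fold change of 2.28 ± 0.16 (adjusted p = 0.00045). Cd8a, which marks cytotoxic T cells, had a log2 fold change of 1.53, and Mzb1, a gene of plasma cells, one of 1.60 that lost its call without any one control rat. The mast cell protease gene Mcpt1l1 read 9.91, 8.65 and 8.50 in the model rats and 6.26, 7.15 and 7.94 in the control rats. Its groups nearly touched, and its call (log2 fold change 1.90 ± 0.52, adjusted p = 0.035) was lost on leaving out any of 4 of the 6 arrays. Milr1, an inhibitory receptor of mast cells, rose by 2.05 ± 0.44 (adjusted p = 0.016, and 0.068 with slide as a block). Bank1, a scaffold of B-cell receptor signalling, had a log2 fold change of -1.11 ± 0.28 (adjusted p = 0.028), which was -0.66 against control 1.

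In the complement and coagulation list 16 genes were called higher and 6 lower. C4bpa, a subunit of the plasma inhibitor of complement factor C4b, read 9.40, 8.95 and 8.34 in the model rats and 6.03, 6.55 and 6.03 in the controls, a log2 fold change of 2.69 ± 0.29 (adjusted p = 0.0017). The complement protease Cfi rose by 2.38 ± 0.40 (adjusted p = 0.0075) and the anaphylatoxin receptor C3ar1 by 2.23 ± 0.16 (adjusted p = 0.00044). Those that fell were Serpina1, Thbd, Vwf, Vtn, Tfpi and F2r. Thbd encodes thrombomodulin, the endothelial receptor that turns thrombin into an anticoagulant. It read 8.68, 9.63 and 10.03 against 11.31, 11.32 and 11.15, a log2 fold change of -1.82 ± 0.32 (adjusted p = 0.0088). The controls agreed closely, whereas the model rats covered more than 1 log2 unit, and with slide as a block the adjusted p was 0.053. Serpina1, the inhibitor of neutrophil elastase, changed by -1.86 ± 0.51 (adjusted p = 0.035), and the call was lost on leaving out model 2 or any control. With slide as a block 3 of the 6 falls were still called.

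In the list of oxidative stress, iron and metal handling, 19 genes were called higher and 4 lower. Slc7a11, the cystine transporter that feeds glutathione synthesis, read 9.27, 9.28 and 9.46 in the model group and 4.21, 5.31 and 4.90 in the controls. Its log2 fold change of 4.53 ± 0.27 (adjusted p = 0.00028) came to 23.1-fold, while its second named probe gave a smaller 3.03 ± 0.39. Lcn2, a secreted protein that binds bacterial iron carriers and is made by neutrophils and airway epithelium, was among the brightest probes, at 16.07, 15.99 and 15.82 against 11.73, 12.24 and 11.24. The rise was 18.7-fold (log2 fold change 4.22 ± 0.25, adjusted p = 0.00028). Hmox1, the enzyme that splits haem, rose by 2.62 ± 0.17 (adjusted p = 0.00035), and the ferritin light chain gene Ftl1 had a log2 fold change of 1.65. Cytosolic parts of the phagocyte NADPH oxidase moved less, with 1.25 for Ncf4 and 1.23 for Rac2. The 4 falling genes were Gstm7, Sepp1, Gstm2 and Gsta4, 3 glutathione transferases and the selenium carrier selenoprotein P. Sepp1 read 11.65, 11.70 and 11.67 in the model rats and 12.56, 13.45 and 13.49 in the control rats, so control 1 lay between the others and the model group, and the log2 difference from control 1 was -0.89. Promoters were found for 16 genes of this list. With both strands searched, TGACTCA, the core that AP-1 binds, was in 1 of them, Srxn1 (6.25%), against 4.53% of all promoters. TGACNNNGC, the antioxidant response core bound by NRF2, was in 5 (31.2%) against 12.2%. These were Hpx, Mt1a, Nfe2l2, Sod2 and the falling Gstm7, so none of the leading rises given above.

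All 19 named genes of glycolysis and nutrient uptake were called higher, with a median log2 fold change of 1.48. Hk3, a hexokinase of myeloid cells, read 9.42, 9.16 and 8.95 against 5.43, 5.72 and 4.89, a rise of 14.2-fold (log2 fold change 3.83 ± 0.24, adjusted p = 0.00032). Bcat1, which transaminates branched-chain amino acids, rose by 3.15 ± 0.16 (adjusted p = 0.00021), and its second named probe gave 3.57. Aldh1l2, a mitochondrial enzyme of folate metabolism, rose by 2.64 ± 0.27 (adjusted p = 0.0014). Smaller changes were seen in the glucose transporter gene Slc2a1 at 1.72, in Gapdh, a common reference gene, at 1.23 and in Pkm at 1.13. Other named probes gave 1.38 to 1.5 for Gapdh and 1.33 and 1.62 for Pkm.

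Lipid genes split, with 17 higher and 5 lower. Pla2g7, the enzyme that degrades platelet-activating factor, read 12.18, 12.09 and 12.33 in the model group and 7.86, 8.44 and 7.77 in the control group, an 18.1-fold rise (log2 fold change 4.18 ± 0.20, adjusted p = 0.00019). The fatty acid binding protein gene Fabp5 rose by 3.57 ± 0.19 (adjusted p = 0.00022). Its relative Fabp4 had a log2 fold change of 5.04 and was well above background in 2 of 3 control rats. Ch25h, which makes 25-hydroxycholesterol, rose by 2.29 ± 0.20 (adjusted p = 8e-04). Downregulated were Ppargc1a, a coactivator for mitochondrial genes, at -1.84 ± 0.38 (adjusted p = 0.014), and the prostaglandin transporter Slco2a1 at -1.64 ± 0.22 (adjusted p = 0.0037). Further falls were Hpgd at -1.54 and Lipe at -1.08. Without model 1, 3 of the 5 falls were called, and 2 with slide as a block.

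Proliferation genes that carried a name rose by moderate factors, with 1 exception. Names came from the study's list of changed genes, so this does not extend to the unnamed ones. All 45 named cell cycle genes were called higher, with log2 fold changes between 1.05 and 2.54 and a median of 1.64, and 44 were at least 2-fold above control 1. Mki67, the source of the proliferation marker Ki-67, read 11.26, 11.09 and 11.01 in the model group and 8.84, 9.74 and 9.03 in the control group. Control 2 was the nearest of the controls, and the groups stayed more than 1 log2 unit apart. The change was 1.92 ± 0.24 (adjusted p = 0.0029). Ccna2, encoding cyclin A, rose by 2.31 ± 0.28 (adjusted p = 0.0028) and Cdca3, a mitotic entry factor, by 2.08 ± 0.34 (adjusted p = 0.0068). Of 25 DNA replication and repair genes, 24 were called higher and 1 lower. Rrm2, the regulated subunit of ribonucleotide reductase, read 8.68, 8.65 and 8.47 against 5.93, 6.53 and 5.91, a change of 2.48 ± 0.19 (adjusted p = 0.00056). Uhrf1, which maintains DNA methylation, rose by 1.92 ± 0.17 (adjusted p = 0.00084) and Rbl1, a pocket protein that binds E2F factors, by 1.80 ± 0.12 (adjusted p = 0.00036). The exception was Pola2, a subunit of DNA polymerase alpha, at -1.18 ± 0.24 (adjusted p = 0.014), which was -0.73 against control 1 and lost its call without control 3.

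Many of the proliferation probes were dim, and their counts moved with the treatment of background. With normexp 7 of the 45 cell cycle genes and 6 of the 24 replication genes were still called, and 27 and 14 were called among probes well above background on every array. No gene of either list was called lower with normexp. Over all probes, 13582 had an unadjusted limma p of at most 0.05 with normexp and 13517 in the main fit. Calls, which also need a 2-fold change, numbered 1303 and 3120.

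Promoters of genes expressed around mitosis are known for CCAAT, bound by NF-Y, and TTTGAA, the core of the cell cycle homology region. Promoters were found for 37 of the 45 cell cycle genes. CCAAT on either strand was in 64.9% of them against 37.7% of all promoters, and TTTGAA in 67.6% against 18.1%. The shares describe letters and not binding. Mki67 and Cdca3 are printed because both are leading genes of the list. Capitals mark CCAAT or its reverse complement and TTTGAA or its reverse complement. Mki67 lies on the minus strand, the window being chr1:199952594-199952843 in GRCr8, and holds CCAAT 4 times and TTTGAA 2 times, the last pair running into each other 99 and 94 bases before the start. Cdca3 lies on the plus strand, at chr4:159320953-159321202, and holds CCAAT 3 times, from 221 to 77 bases before the start, without TTTGAA in these letters.
Mki67: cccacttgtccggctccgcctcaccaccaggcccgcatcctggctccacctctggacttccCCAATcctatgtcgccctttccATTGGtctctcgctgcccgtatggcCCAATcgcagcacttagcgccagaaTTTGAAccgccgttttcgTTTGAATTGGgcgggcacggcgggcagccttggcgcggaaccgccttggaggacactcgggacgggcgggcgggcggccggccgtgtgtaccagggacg
Cdca3: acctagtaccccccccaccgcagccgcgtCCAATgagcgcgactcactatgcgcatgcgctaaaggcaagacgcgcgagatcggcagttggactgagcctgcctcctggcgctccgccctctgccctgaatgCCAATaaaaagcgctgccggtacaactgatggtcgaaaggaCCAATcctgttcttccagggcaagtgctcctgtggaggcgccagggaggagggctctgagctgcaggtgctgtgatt

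Matrix genes went both ways, with 14 called higher, 15 lower and 1 not called. Thbs2, a matricellular protein of scar tissue, read 9.19, 8.32 and 7.88 in the model group and 3.72, 5.11 and 3.75 in the controls, a log2 fold change of 4.27 ± 0.47 (adjusted p = 0.0019). It was well above background in 2 of the 3 control rats. The gelatinase gene Mmp9 read 8.80, 8.66 and 9.36 against 5.12, 6.64 and 5.78, a rise of 8.54-fold (log2 fold change 3.09 ± 0.39, adjusted p = 0.003). The proteoglycan gene Vcan rose by 2.49 ± 0.30 (adjusted p = 0.0025) and Mmp14, a membrane-bound collagenase, by 1.92 ± 0.14 (adjusted p = 5e-04). The aggrecanase gene Adamts4 was at least 5.23-fold higher. Genes usually read as signs of fibrosis moved less, with log2 fold changes of 1.86 for Timp1, 1.47 for Col1a1, 1.46 for Lum, 1.34 for Fn1 and 1.30 for Tgfb1. The Col1a1 call held in 1 of the 6 fits that leave out an array. The falls included Spock2 at -1.85, Fras1 at -1.61, the TGF-beta co-receptor Tgfbr3 at -1.53, the elastic fibre genes Efemp1 and Fbln5 at -1.41 and -1.06, the metalloproteinase inhibitors Reck and Timp3 at -1.27 and -1.24, and Lama2 at -1.17. The calls of Efemp1 and Lama2 held in 1 and 2 of the 6 fits that leave out an array. With slide as a block 14 genes of the list were called higher and 9 lower, and 7 were called lower on leaving out model 1. The median of the list was -1.02, or -0.59 with the genes below background at their bounds.

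Endothelial genes fell without an exception among those named. All 43 were called lower, with log2 fold changes between -2.23 and -1.06 and a median of -1.37, and 42 were at least 2-fold below control 1. Plvap, which forms the diaphragms of endothelial vesicles, read 8.60, 9.73 and 9.82 in the model group and 11.27, 11.46 and 11.69 in the control group. Control 1 was the lowest control and still lay well above every model rat. The change was -2.09 ± 0.33 (adjusted p = 0.006), and with slide as a block it was -1.89 with an adjusted p of 0.051. Cav1, the main protein of caveolae, lay between 9.93 and 11.04 in the model rats and between 12.34 and 12.51 in the control rats, a change of -1.88 ± 0.27 (adjusted p = 0.0048). Vwf, a clotting protein stored in endothelium, read 10.15, 10.90 and 10.91 against 12.33, 11.79 and 12.24, a change of -1.47 ± 0.25 (adjusted p = 0.0079). Further caveolar genes lay in the same range, with log2 fold changes of -1.88 for Sdpr, -1.73 for Ptrf and -1.59 for Cav2. The receptors and junction genes Tek, Ptprb, Cdh5 and Esam had changes of -1.54, -1.58, -1.32 and -1.26, and Ace, the angiotensin-converting enzyme of lung capillaries, one of -1.51. Model 1 was the lowest array in 40 of the 43 genes. Against control 1 alone, within its slide, 5 of the 43 passed the call, a comparison with 1 control rat, and 31 passed with slide as a block. Without model 1, 30 of the 43 were called.

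Genes of the alveolar epithelium fell as well, all 9 named ones being called lower with a median of -1.41. Rtkn2, a marker of the flat type 1 cells, read 8.84, 9.38 and 9.57 in the model group and 10.77, 11.19 and 11.12 in the control group, a change of -1.76 ± 0.22 (adjusted p = 0.0029). The water channel gene Aqp5 and the chloride channel gene Clic5, also of type 1 cells, had log2 fold changes of -1.24 and -1.30. Spock2 and Cav1, on this list too, are described above. With slide as a block 4 of the 9 were called. No surfactant gene carried a name, so type 2 cells are not analysed here.

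Airway genes fell in part. Of 21 named genes of club and ciliated cells, 15 were called lower and 6 higher. Cyp2f4, a cytochrome of club cells, read 6.13, 5.88 and 4.70 against 7.53, 9.40 and 7.23, a change of -2.48 ± 0.63 (adjusted p = 0.028), and its relative Cyp2a3 was at least 4.55-fold lower, not being well above background in any model rat. Fmo2, a flavin monooxygenase of the lung, read 7.78, 9.23 and 9.66 against 11.25, 11.24 and 11.28, a change of -2.37 ± 0.45 (adjusted p = 0.011). The slide block gave adjusted p-values of 0.19, 0.17 and 0.067 for Cyp2f4, Cyp2a3 and Fmo2 and left 3 of the 15 falls called. Without model 3, 9 of the 15 were called. Ciliary genes Tppp3, Cfap52 and Rsph1 had log2 fold changes of -1.50, -1.20 and -1.12, the last called in 1 of the 6 fits that leave out an array. Among the rises, Slc26a4, the anion exchanger pendrin, read 9.92, 8.86 and 8.65 in the model rats and 3.97, 4.94 and 4.17 in the control rats, a change of 4.79 ± 0.39 (adjusted p = 7e-04). Bpifb1, a secreted defence protein of the airways, read 11.70, 11.81 and 11.03 against 5.32, 9.76 and 6.19. Its 3 control rats differed from each other by more than 4 log2 units, and the call (log2 fold change 4.42 ± 1.07, adjusted p = 0.024) held in 1 of the 6 fits that leave out an array. Fam161a, a protein of the ciliary base, rose by 2.23 ± 0.17 (adjusted p = 0.00058).

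Smooth muscle and pericyte genes were lower in 11 of 12 cases, the remaining one, Notch3, being at -1 without a call. Synm, an intermediate filament gene, read 5.99, 6.51 and 6.70 against 7.95, 8.19 and 8.08, a change of -1.68 ± 0.19 (adjusted p = 0.0023). Pde5a, the phosphodiesterase of the nitric oxide pathway, changed by -1.44 ± 0.22 (adjusted p = 0.0055) and Pdlim3 by -1.40 ± 0.22 (adjusted p = 0.0057). Without model 1, 5 genes of the list were called lower, and 6 with slide as a block. Both named haemoglobin genes fell. Hbb-b1 read 10.51, 11.95 and 13.22 in the model rats and 14.24, 15.36 and 14.22 in the control rats, a change of -2.71 ± 0.68 (adjusted p = 0.026). The model rats were widely spread, Hbe2 followed at -2.71 ± 0.68, and both calls were lost under the slide block (adjusted p = 0.16 and 0.18).

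**Figure D3:**
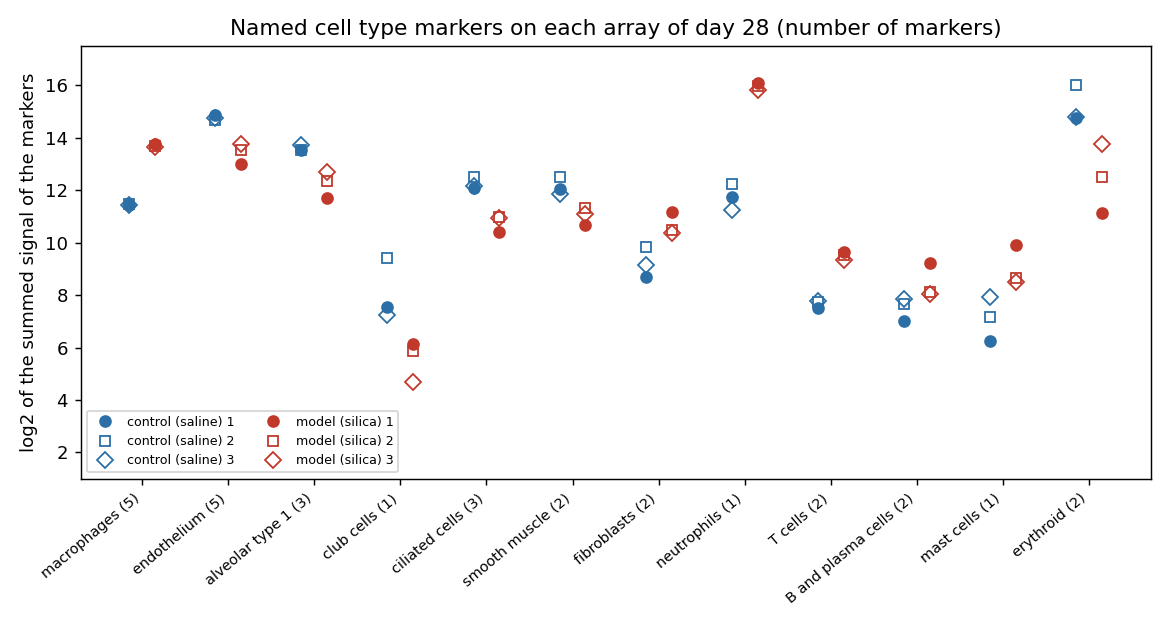
Log2 of the summed signal of named markers (vertical axis) of 12 cell types on each array of day 28, with the number of markers in brackets, controls in blue, models in red and replicate 1 filled. Macrophage markers sit between 13.63 and 13.77 in the model group and between 11.44 and 11.49 in the control group, endothelial markers between 13 and 13.77 against 14.66 and 14.86.

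Markers of the cells a lung can hold moved in both directions beside these lists. The 5 macrophage markers were all called higher, their summed signal reading 13.63 to 13.77 in the model group and 11.44 to 11.49 in the control group on the log2 scale. The 5 endothelial markers were all called lower, at 13 to 13.77 against 14.66 to 14.86. Type 1 cell markers read 11.71 to 12.70 against 13.53 to 13.71 and ciliated cell markers 10.40 to 10.99 against 12.07 to 12.51. Those of fibroblasts (10.36 to 11.18 against 8.70 to 9.85) and T cells (9.34 to 9.65 against 7.49 to 7.78) were higher in the model group. Only named markers entered the sums, 3 of 5 for type 1 cells, 3 of 4 for ciliated cells and 2 of 4 each for fibroblasts and T cells. The names come from genes listed as changed on these arrays, so the sums are not independent evidence of a shift in cells. Named alveolar type 1, airway, endothelial and muscle markers gave a signal on all 6 arrays, which does not by itself establish the identity of the tissue. Their part in the changes of other genes was not tested.

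Enzymes of xenobiotic metabolism fell in 23 of 26 named cases and rose in 3. Besides the airway cytochromes and Fmo2, the largest fall was in Abcb1b, a P-glycoprotein drug pump, which read 7.40, 8.75 and 7.35 in the model group and 10.01, 10.30 and 10.19 in the control group (log2 fold change -2.33 ± 0.37, adjusted p = 0.0061). Gstm7 and Gstm2 changed by -1.76 ± 0.32 and -1.27 ± 0.18 (adjusted p = 0.0097 and 0.0041), and Aldh1a1, which makes retinoic acid, had a log2 fold change of -1.68. Cyp1b1 and Tpmt were among the rises, by 1.24 ± 0.12 and 1.03 ± 0.17 (adjusted p = 0.0011 and 0.0067). In the 23 falls, 22 were at least 2-fold below control 1, 9 were called with slide as a block and 15 without model 1.

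The deepest falls among named genes well above background on all 6 arrays were in Nr1d1 and Zbtb16, both placed on the list of clock genes. Hbb-b1 and Hbe2 were close behind at -2.71. Of 11 named genes on the clock list, 8 were called lower and 3 higher, and 5 and 2 without model 1. Nr1d1, the haem receptor REV-ERB alpha that represses the clock gene Bmal1, read 6.70, 8.72 and 8.35 in the model rats and 11.15, 11.13 and 10.35 in the control rats. Model 1 was lowest, and the groups did not overlap. The change was -2.95 ± 0.53 (adjusted p = 0.009). Zbtb16, a zinc finger repressor induced by glucocorticoids, read 7.52, 6.86 and 7.73 against 9.80, 10.82 and 9.66, a change of -2.72 ± 0.36 (adjusted p = 0.0035). Bhlhe41, a repressor at E-boxes, read 11.96, 11.75 and 11.76 against 8.52, 8.75 and 8.10, a 10.3-fold rise (log2 fold change 3.37 ± 0.18, adjusted p = 0.00023). Its relative Bhlhe40 rose by 1.1 ± 0.18 (adjusted p = 0.0072), a call lost without control 3. Nfil3, the repressor that competes with the D-box activators, had a log2 fold change of 1.07 ± 0.31 (adjusted p = 0.041) that held in none of the 6 fits that leave out an array. The times of day at which the lungs were taken are not given in the sources used here.

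Clock factors act through the E-box CACGTG. Promoters were found for 9 of the 11 genes, and 3 of them (33.3%) held it, against 6.65% of all promoters. TTATGTAA, the D-box, was in none of the 9 and in 0.881% of all. Bhlhe41 is printed as the gene of this list with the largest rise, on the minus strand at chr4:180569356-180569605 in GRCr8, with the E-box in capitals 48 bases before the start.
Bhlhe41: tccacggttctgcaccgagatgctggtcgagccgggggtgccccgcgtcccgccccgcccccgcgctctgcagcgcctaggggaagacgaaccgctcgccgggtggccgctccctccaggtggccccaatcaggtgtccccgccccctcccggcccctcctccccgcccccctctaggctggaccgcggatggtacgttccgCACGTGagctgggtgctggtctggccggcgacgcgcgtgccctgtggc

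Notch, Wnt and BMP genes were mostly lower, with 14 called lower and 4 higher of 19 named. At least 2-fold below control 1 lay 10 of the 19 genes, and 2 lay at least as far above it. With slide as a block 9 were called lower and 1 higher, with normexp 5 and 2, and without model 1 9 and 3. Smad6, an inhibitor of BMP signalling that is abundant in endothelium, read 8.44, 10.23 and 10.58 in the model group and 12.17, 11.92 and 11.80 in the control group. Model 1 lay far below the other model rats. The change was -2.21 ± 0.53 (adjusted p = 0.023, and 0.09 with slide as a block). The Wnt receptor gene Fzd4 fell by 1.63 on the log2 scale (SE 0.19, adjusted p = 0.0024). Gdf15, a stress-induced member of the TGF-beta family, went up instead, reading 11.17, 10.82 and 11.24 against 7.61, 8.09 and 7.67, a 9.74-fold rise (log2 fold change 3.28 ± 0.18, adjusted p = 0.00024). The secreted BMP modulators Chrdl2 and Kcp were dim, Chrdl2 being at least 2.47-fold higher and Kcp having a log2 fold change of 1.28 ± 0.33 (adjusted p = 0.03, and 0.23 with slide as a block).

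Potassium channels and receptors for acetylcholine or vasoactive intestinal peptide were lower in 16 of 18 cases. Vipr1, the receptor of that bronchodilator peptide, read 8.07, 9.64 and 9.82 against 11.42, 11.06 and 11.26, a change of -2.07 ± 0.45 (adjusted p = 0.017), lost without control 3 and with slide as a block (adjusted p = 0.073). The nicotinic receptor gene Chrna7 read 4.62, 4.60 and 4.98 against 6.36, 6.24 and 6.11 (log2 fold change -1.50 ± 0.14, adjusted p = 0.0012). Kcnn4, the calcium-activated channel of leukocytes and fibroblasts, rose 8.48-fold, from 6.02, 5.96 and 5.98 in the control group to 9.20, 9.04 and 8.97 in the model group (log2 fold change 3.08 ± 0.11, adjusted p = 0.00012). Kcnk13 was at least 3.02-fold higher. Since 8 of the 18 genes were below background in one group, the median of -1.36 became -0.87 with those genes at their bounds, and 3 of the 16 falls were called with normexp. With slide as a block 6 were called.

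By size alone, the 5 largest rises among genes well above background on all 6 arrays included Slc7a11, Bpifb1, Itgam and Lcn2. The 5 largest falls were Nr1d1, Zbtb16, Hbb-b1, Hbe2 and LOC287167, the last with a log2 fold change of -2.55 ± 0.41 (adjusted p = 0.0063).

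Because slide and group overlap in part, each gene was also set against control 1, the one control on the slide of the model arrays. All 3120 called probes differed from control 1 in the direction of the call, and 2686 of them (86.1%) did so at least 2-fold, 1432 of the rises (89.6%) and 1254 of the falls (82.4%). Over all probes tested, 4158 (13%) lay at least 2-fold from control 1, 6.25% higher and 6.70% lower. Control 1 is itself part of the control mean, so this count is not independent of the call. For named genes the direction could not turn, because none had overlapping groups. With slide as a block, which then rests on that rat, 3067 probes were called (9.56%), 1786 higher (5.56%) and 1281 lower (3.99%), of which 2118 were among the 3120. In that fit 778 named genes were called (70.9%). Of the named genes called without the block, 499 of 571 rises and 276 of 522 falls were called with it. Within the slide alone, 2224 probes were called, 1502 higher and 722 lower.

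**Figure D4:**
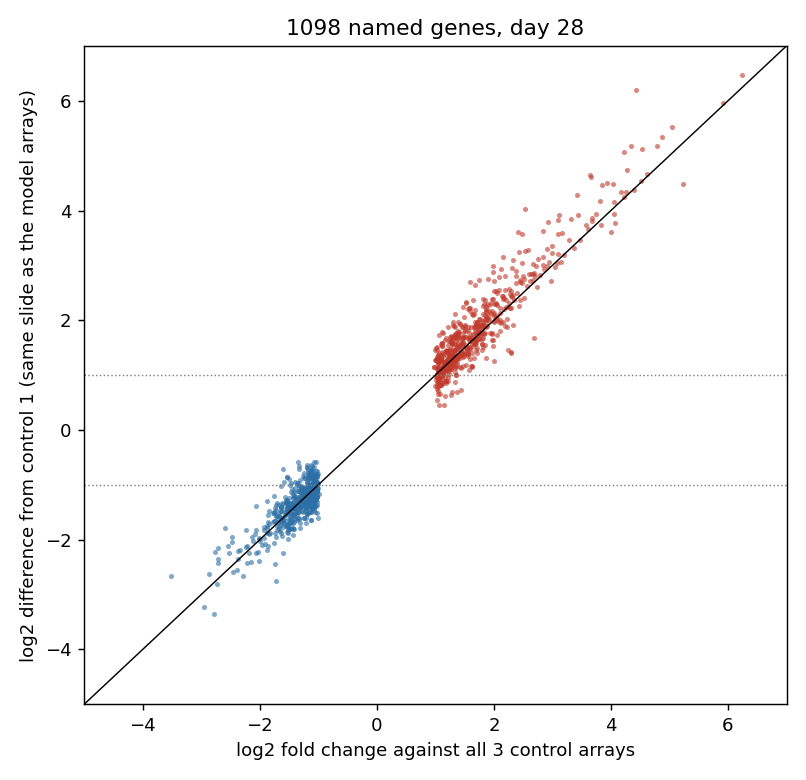
For 1098 named genes, the log2 fold change against all 3 controls (horizontal axis) and the log2 difference between the model mean and control 1 on the same slide (vertical axis), with the line of equality in black and 2-fold limits dotted. All genes keep their direction, which was fixed in advance because none of them has overlapping groups. Of the 1093 called genes, 965 lie at least 2-fold from control 1 in the direction of the call.

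Rats of day 14 were not used to choose the named genes. Titles and time points of these arrays say 14 d, while their descriptions and protocol text say 28 d, and they are taken here by their titles. At day 14, 1646 of 33615 probes were called (4.90%), 870 higher (2.59%) and 776 lower (2.31%). Among named genes 429 of 1063 (40.4%) were called. The count over all probes was unstable, falling to 587, 325 and 305 without control 1, 2 or 3 of that day. Of 3021 probes called at day 28 and tested at day 14, 2921 changed in the same direction, and 1181 were called at both times in the same direction. Of the named genes called at day 28, 1059 were tested at day 14, 1039 changed in the same direction and 428 were called in that direction, against 1 called in the opposite one.

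Lysosomal genes were close at both times, with 21 of 28 called higher at day 14 and medians of 1.46 at day 14 and 1.49 at day 28. Macrophage genes had 16 of 27 called and a median of 1.52, and Gpnmb, Trem2 and Lcn2 had log2 fold changes of 4.03, 4.20 and 4.40 at day 14 (adjusted p = 0.0023 for each). Endothelial genes had 25 of 42 called lower and a median of -1.13. Cell cycle genes had 14 of 42 called higher and a median of 0.92, beside 1.64 at day 28, and interferon response genes 4 of 13 and a median of 0.67, beside 1.41. Nr1d1 changed by -0.81 (adjusted p = 0.42) at day 14 and by -2.95 at day 28, Abcb1b by -0.32 (adjusted p = 0.76) and -2.33.

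Whether these differences between times exceed the spread between rats was tested by the interaction of silica and day over all 12 arrays. No probe of 34097 passed at an adjusted p of 0.05, the smallest adjusted p being 0.057, while 3387 (9.93%) had an unadjusted p of at most 0.05. Nr1d1 had an interaction of -2.12 (unadjusted p = 0.036). An unadjusted p of at most 0.05 was seen in 22 of the 45 cell cycle genes and 9 of the 14 interferon response genes. It was seen in 2 of 28 lysosomal genes and in 211 of the 1098 named genes tested. Named genes were selected for change at day 28, which favours smaller changes at day 14, so these counts are not evidence of timing. With slide in the model 4 probes (0.0117%) passed, 1 of them a named probe, for Fam111a. Without control 1 of day 28, 265 probes passed, and without silica rat 1 of day 14, 21. None of the differences between times given above passed the adjusted threshold.

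**Figure D5:**
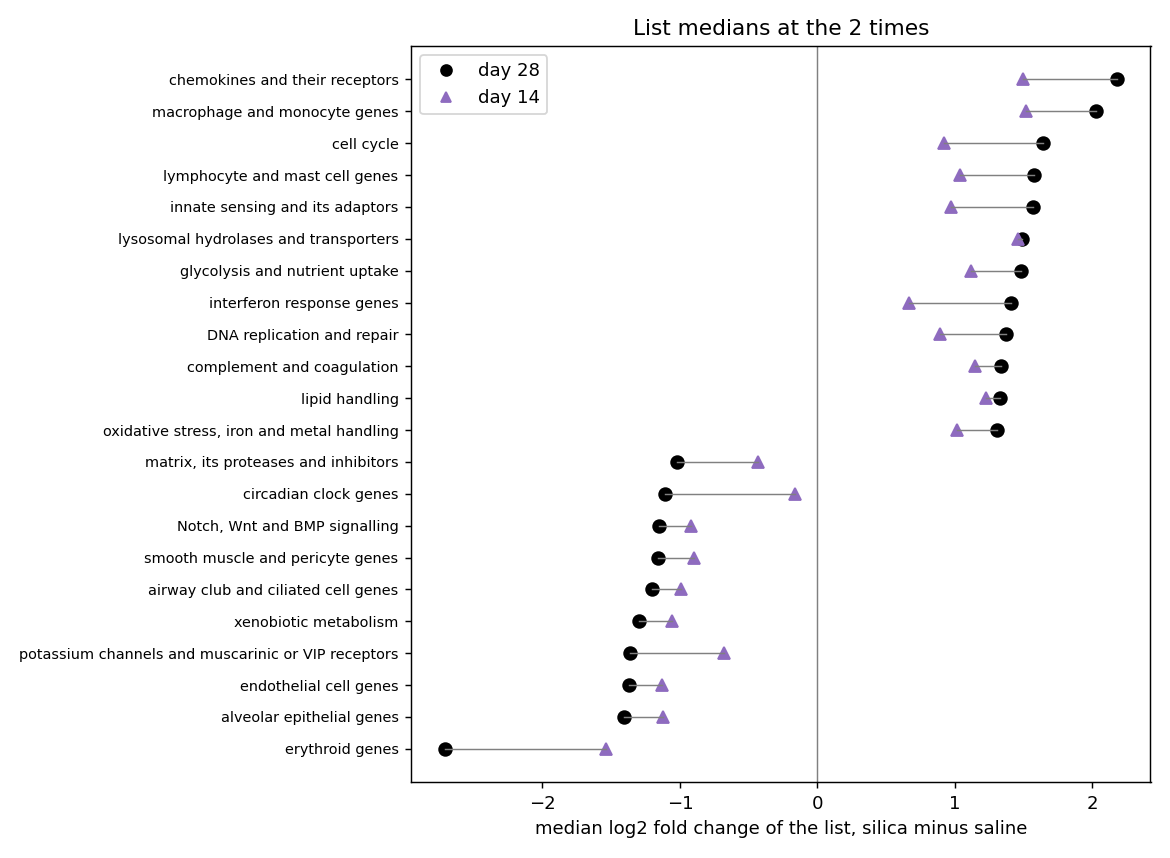
Median log2 fold change between silica and saline (horizontal axis) of each of 22 lists at day 28 (black circles) and at day 14 (purple triangles), in separate rats. Cell cycle genes stand at 1.64 and 0.92, lysosomal genes at 1.49 and 1.46, and endothelial genes at -1.37 and -1.13.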

How the data were processed

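Total RNA of 1 rat lung per array was labelled with a single dye and hybridised to Agilent rat arrays. The deposited intensity values (gProcessedSignal) had been background-subtracted and spatially detrended by the authors with Agilent Feature Extraction 10.7.1.1. The authors also deposited a table of quantile-normalized log2 values, used here as an alternative. The 1439 control spots and flagged outliers were removed, spots of a probe were averaged, and log2 intensities were quantile normalized. A probe was tested where 1 group or more had it well above background in each of its rats. Groups were compared with limma 3.58.1 in R 4.3.3 (lmFit, eBayes, Benjamini-Hochberg adjustment), and every p-value given is from limma. Calls required a 2-fold difference and an adjusted p no higher than 0.05. Each group held 3 separate rats, and an exact permutation test of 3 against 3 cannot go below 0.1. Precision is limited by having 3 arrays in a group.

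In each list the 3 largest changes were named among called genes well above background on all 6 arrays and without overlap between the groups. By the same rule the 5 largest rises and falls over all named genes were taken. Up to 3 genes called against most of their list were named as well. Some genes that the rule named are not reported here. Other genes were chosen after their values were seen. Members and lists were chosen with earlier results of these data known. A gene was read by its named probe of highest mean signal, and 158 genes had more than 1. Of the named probes, 1050 had an accession in RefSeq GRCr8, and 4 symbols had been turned into dates. Fold changes and p-values in the study's gene table were not used. Probe sequences were not used here.

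The fit was tested on simulated data with 200 changed probes among 32097 at day 28. It recovered 96% of changes of 2 on the log2 scale and 97% of changes of 3, or 67% and 88% with slide as a block. False calls numbered 7, or 12 with the block. The changed probes were all well above background on the 12 arrays, and the noise was independent between arrays without a slide effect. Recovery of dim probes, or under a real slide effect, was therefore not measured. Alternatives were normexp background correction with an offset of 50, 75th percentile scaling, other filters and no minimum fold. Further ones were the methods' t-test, slide and replicate blocks, and leaving out each array.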

Additional observations from a re-analysis of the deposited data

Results flagged for a closer look

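Among the named genes called at day 28, 3 moved one way in every rat of day 28 and the opposite way in every rat of day 14. They were chosen after their values were seen. The potassium channel gene Kcna5 read 3.46, 3.72 and 3.49 in the silica rats of day 28 and 4.48, 5.06 and 4.32 in the saline rats, a log2 fold change of -1.06 (limma adjusted p = 0.012). At day 14 the silica rats read 4.67, 4.92 and 4.66 and the saline rats 4.03, 4.32 and 3.75, a log2 fold change of 0.72. LOC102547047 had a log2 fold change of -2.07 at day 28 (limma adjusted p = 0.034) and of 0.43 at day 14. LOC103694669 changed by -1.01 at day 28 (limma adjusted p = 0.037) and by 2.02 at day 14 (limma adjusted p = 0.011).

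The interactions of silica and day were -1.79, -2.57 and -3 on the log2 scale for Kcna5, LOC102547047 and LOC103694669, with limma adjusted p-values of 0.17, 0.32 and 0.093 (unadjusted 6.5e-05, 0.0032 and 1.9e-05), so none passed. All 3 probes were not well above background on any silica array of day 28 and well above it on all 3 saline arrays, and their fold changes there are fitted values and not bounds.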

How the results depend on the processing

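The 3120 probes called at day 28 became 1303 with normexp (795 higher, 508 lower) and 9221 with no minimum fold, and between 2495 (without model 1) and 3765 (without control 1) on leaving out an array. Scaling to the 75th percentile gave 3195, the log2 values of the authors 3064, no filter on dim probes 3081, the filter on every array 2346, all 12 arrays 3163, and the methods' t-test 3046 unadjusted and 2157 after Benjamini-Hochberg. At day 14 the 1646 calls became 709 with normexp, 395 with no filter on dim probes, 3145 with no minimum fold, 1 with the methods' t-test after Benjamini-Hochberg, and 305 to 2338 on leaving out an array. The interaction, with 0 calls, gave 1 with normexp, 1 with no filter, 1 with the filter on every array, 1 with a trend in eBayes, 4 with slide as a block and 0 to 265 on leaving out an array.

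Rats with the same replicate number did not deviate together (correlations of -0.16, -0.03 and -0.07), so the numbers do not pair them. With a replicate block, 2897 probes were called at day 28, 1533 at day 14 and 0 for the interaction. The split of calls by direction was less stable. At day 28 it turned from 1599 higher and 1521 lower to 1577 and 1618 with 75th percentile scaling, 1702 and 2063 without control 1, and 1690 and 1706 without model 3. At day 14 it turned from 870 and 776 to 963 and 1375 without silica rat 2 of that day, and matrix genes at day 28 from 14 and 15 to 14 and 9 with slide as a block. Of the 88 genes picked by the rule, 65 were called with slide as a block, 75 with normexp and 86 with the replicate block, and 71 in all 6 fits that leave out an array. The cause of these changes was not tested.

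Named genes came from a list of changes on these arrays, so shares of called genes are not informative. The slide block rests on control 1. Calls of dim probes, frequent among cell cycle genes, depend on the background correction and its offset.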
